A study of Mus musculus with 6 samples.

Results

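The genes of the matrix metalloproteinases (MMP), the tissue inhibitors of metalloproteinases (TIMP) and the related ADAM, ADAMTS and ADAMTS-like (ADAMTSL) families were examined in whole-lung RNA of WT and ISM1-/- mice. These families were chosen with earlier results of these data known. Their members were taken by name, as the protein-coding entries of the gene table whose symbol starts with Mmp, Timp or Adam and a digit, or with Adamts. Mmp8 and Mmp9, whose products are stored in neutrophil granules, were left out. Of the 54532 genes in the table, 81 met this rule, namely 20 MMP, 4 TIMP, 33 ADAM, 19 ADAMTS and 5 ADAMTSL genes. Of these 81 genes, 58 reached 0.5 CPM (counts scaled to a common library size) in at least 1 library and were among the 18689 genes compared between genotypes.

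The study sequenced RNA of untreated, perfused lungs at 2 months from 3 WT mice and 3 ISM1-/- mice, which are deficient in the secreted protein isthmin-1, so n = 3 per genotype throughout. Both genotypes were on the C57BL/6J background. The WT animals came from a supplier and the ISM1-/- line was bred by the laboratory, so genotype and origin cannot be told apart, and sex is not given in the sources used here. Library totals lay between 37606133 and 42345042 counts. Ism1 itself was measured at 82.1, 77.4 and 76.9 CPM in WT and at 65.4, 66.0 and 75.6 CPM in the libraries labelled ISM1-/- (log2 fold change −0.19, adjusted p = 0.217 in edgeR's quasi-likelihood test, Benjamini-Hochberg method). The transcript was still present in each of the latter, and the deleted stretch is not given in the sources used here. Genotypes therefore rest on the labels, and ISM1-/- below stands for the libraries labelled so.

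MMPs are zinc-dependent endopeptidases that are made as inactive zymogens and cleave collagens, elastin, proteoglycans and other matrix proteins. TIMPs bind the active site and block it, and the balance of protease and inhibitor is a classical subject in emphysema, the loss of alveolar walls and elastic fibres. ADAMs are membrane-anchored relatives, several of which release (shed) cytokines, growth factors and receptors from the cell surface, while ADAMTS enzymes are secreted and ADAMTSL proteins keep the ancillary domains without a protease domain.

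Promoter sequence is shown for 6 genes. MMP genes inside and outside a cluster on chromosome 9 differed in promoter letters and median level, and Adamts9 differed between genotypes. Of the 20 MMP genes, 8 lie in a cluster on chromosome 9 (chr9:7272514-7699585, GRCm38) that spans 427.1 kb, namely Mmp13, Mmp12, Mmp1b, Mmp3, Mmp10, Mmp27, Mmp20 and Mmp7. The excluded Mmp8 also lies in this stretch and is in none of the cluster counts and levels given here. The sequences come from RefSeq promoter windows of 300 bases (GRCm38.p6, 250 bases before to 50 bases after a transcript start), which cover 51 of the 81 genes. They were searched on both strands for an AP-1 site (TGANTCA, bound by Fos and Jun proteins), a TATA box (TATAAA) and a GC box (GGGCGG, bound by Sp1), which were counted separately. In the lines that follow, capitals mark these motifs and each sequence is read along the strand of its gene. Mmp13 (chr9:7272394-7272513, forward strand), Mmp3 (chr9:7445702-7445821, forward strand) and Mmp10 (chr9:7502222-7502341, forward strand) stand for the cluster with 120 bases each.
Mmp13: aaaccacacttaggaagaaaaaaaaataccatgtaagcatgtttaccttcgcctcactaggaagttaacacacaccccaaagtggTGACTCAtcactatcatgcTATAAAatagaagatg
Mmp3: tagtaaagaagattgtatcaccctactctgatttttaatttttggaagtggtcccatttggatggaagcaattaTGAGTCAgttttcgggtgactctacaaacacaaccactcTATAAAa
Mmp10: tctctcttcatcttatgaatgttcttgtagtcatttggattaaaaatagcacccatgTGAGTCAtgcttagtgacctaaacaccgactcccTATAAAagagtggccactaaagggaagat
Mmp14 (chr14:54431478-54431597, forward strand) and Mmp15 (chr8:95352148-95352267, forward strand) stand for the abundant MMP genes outside the cluster, also with 120 bases each.
Mmp14: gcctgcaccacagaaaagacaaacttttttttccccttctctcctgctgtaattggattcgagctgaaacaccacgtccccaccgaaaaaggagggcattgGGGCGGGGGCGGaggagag
Mmp15: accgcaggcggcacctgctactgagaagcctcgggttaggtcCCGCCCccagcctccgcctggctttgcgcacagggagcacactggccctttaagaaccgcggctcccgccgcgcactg
Adamts9 (chr6:92943535-92943784, reverse strand) is shown with 250 bases.
Adamts9: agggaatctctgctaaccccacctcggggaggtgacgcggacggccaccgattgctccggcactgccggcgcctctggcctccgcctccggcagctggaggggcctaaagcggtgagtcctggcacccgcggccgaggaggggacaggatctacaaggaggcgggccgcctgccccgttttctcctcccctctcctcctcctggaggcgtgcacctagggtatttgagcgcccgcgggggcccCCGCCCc

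All 8 cluster genes have at least 1 RefSeq window, and 7 of them have a window with both an AP-1 site and a TATA box. Mmp12 and Mmp7 have 2 windows each, of which 1 holds both motifs and the other neither. Mmp27 is the exception, and 0 of the 8 hold a GC box. In the printed stretches the AP-1 letters begin 35 bases before the RefSeq start in Mmp13, 46 bases in Mmp3 and 63 bases in Mmp10, and the TATA box follows at 16, 7 and 29 bases. Of the 12 other MMP genes, 8 have a window, of which 7 hold a GC box, 0 an AP-1 site and 1 (Mmp21) a TATA box. Counted per window, 36.8% of the 19 MMP windows hold the AP-1 letters, 42.1% the TATA box and 36.8% the GC box, against 7.81%, 13.6% and 35.7% of all 32851 windows. Mmp2, Mmp16, Mmp17 and Mmp19 have no window in the RefSeq table. The Adamts9 window holds 1 GC box, which begins 7 bases before the start, and neither of the other motifs. A match of letters describes these windows and says nothing of which factor binds there.

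The cluster genes and the other MMP genes also differed in the median level of RNA, although their ranges overlapped. On the FPKM scale, which divides counts by gene length and so lets genes be compared, the 8 cluster genes had a median level of 0.158 FPKM and together took 3.667% of the summed MMP level. The 12 other MMP genes had a median of 10.26 FPKM. Mean levels ran from 0 to 10.1 FPKM in the cluster and from 0.0061 to 95.2 FPKM among the other MMP genes. Mmp3, stromelysin-1, was the highest gene of the cluster at 10.1 FPKM, followed by Mmp12, macrophage elastase, at 2.56 FPKM. Mmp1b and Mmp20 (enamelysin, known from teeth) had 0 counts in all 6 libraries. Mmp10, stromelysin-2, had 1 count in WT replicate 1 and in ISM1-/- replicate 2 and 0 in the others, and Mmp7, matrilysin, had between 0 and 2 counts. A count of 0 in a library allows up to 3 counts, and this limit covers counting error only.

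Between genotypes, 2 of the 58 compared genes (3.45%) had an adjusted p under 0.1, against 4.72% of all 18689 genes. Both were ADAMTS genes and both were higher in ISM1-/-, namely Adamts9 and Adamts6, where 1.38% of all genes were called higher. None of the 58 was called lower in edgeR's quasi-likelihood test, where 3.34% of all genes were, although 7 of them had a lower mean at an unadjusted p under 0.05 and 1, Adamts15, was called lower by DESeq2. None differed by 2-fold or more at the adjusted threshold in edgeR or DESeq2, where 0.567% of all genes did in edgeR. At an unadjusted p under 0.05 in edgeR's test the count was 13 of 58 (22.4%), against 15.8% of all genes. Of the 13, 6 were higher and 7 lower in ISM1-/-, where 6.48% and 9.3% of all genes were. In 14 of the 58 genes (24.1%) the CPM values of the genotypes did not overlap, 7 in each direction, and in 21.6% of all genes they did not (9.33% higher and 12.3% lower). The median log2 fold change, ISM1-/- over WT, was 0.012 over the 58 genes and 0.0043 over all genes, with 31 of the 58 above 0 and 51.2% of all genes above 0.

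**Figure D1:**
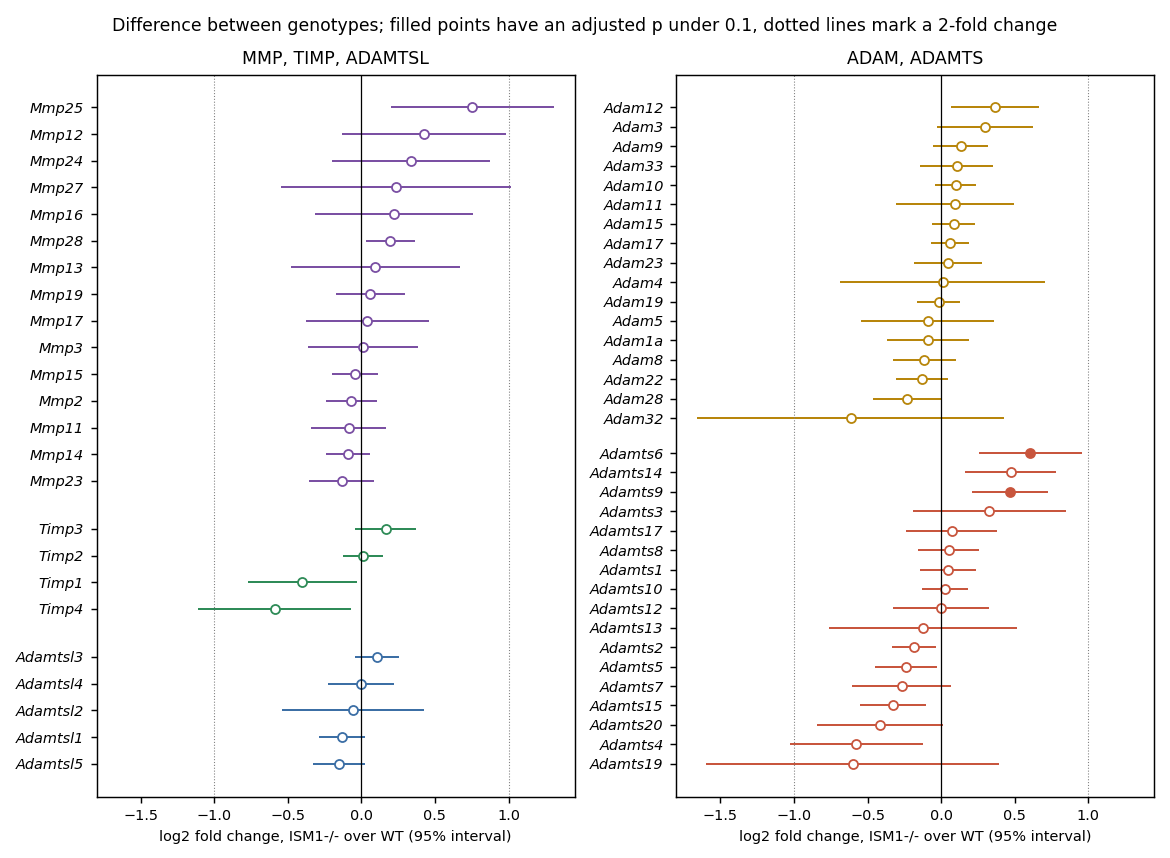
Log2 fold change (ISM1-/- over WT, horizontal axis) of the 58 compared genes by family, with the 95% interval of edgeR's quasi-likelihood fit as a line (n = 3 libraries per genotype). Adamts6 (0.61) and Adamts9 (0.47) are the filled points, the mark of an adjusted p under 0.1, and no point reaches the dotted lines of a 2-fold change.

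The fold changes of the 58 genes ran from 0.653 to 1.69 (ISM1-/- over WT, linear scale). How small a difference could be resolved depended on the level. The median standard error of the log2 fold change was 0.0789 for the 26 genes at 10 FPKM and over, 0.135 for the 19 genes between 1 and 10 FPKM and 0.245 for the 13 genes under 1 FPKM. The 95% interval lay within a 1.5-fold change in both directions for 37 of the 58 genes and within a 2-fold change for 52. In 13 of the 58 genes another gene with at least 5% of the member's mean count overlapped it, and the counts of these members are uncertain. The median coefficient of variation of the CPM values between libraries was 7.86% in WT and 10.3% in ISM1-/-.

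The inhibitors were the most abundant class. Timp3, which is held in the matrix and also inhibits ADAM17, averaged 428.9 FPKM over the 6 libraries and made up 56.6% of the TIMP level. Timp2, which inhibits MMPs and takes part in the activation of pro-MMP2 by MMP14, averaged 323.1 FPKM or 42.6%. Timp1, a soluble inhibitor that is often induced in inflammation, averaged 5.43 FPKM, and Timp4 averaged 0.635 FPKM. The ranges over the 6 libraries did not meet between neighbours in this order. They were 382 to 512 FPKM for Timp3, 307 to 335 FPKM for Timp2, 4.18 to 7.50 FPKM for Timp1 and 0.401 to 0.933 FPKM for Timp4.

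**Figure D2:**
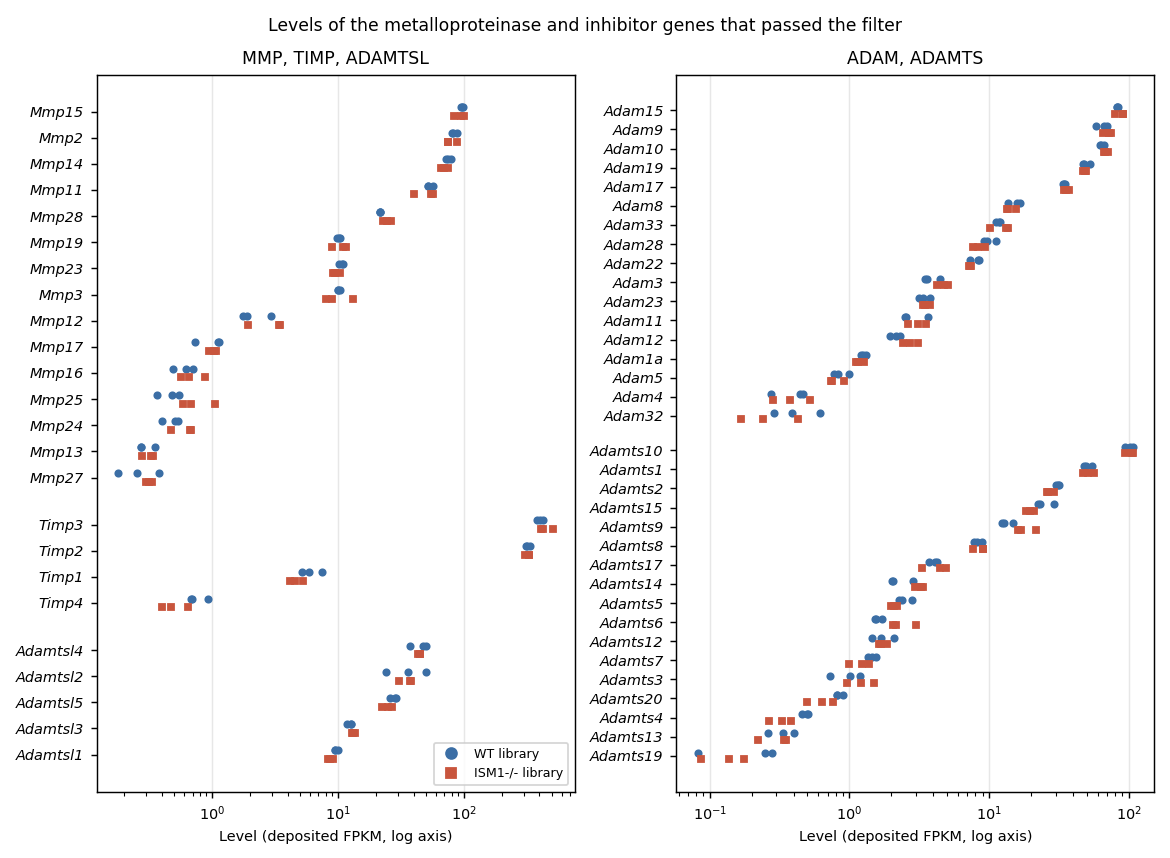
Deposited FPKM (log axis, horizontal) of the 58 compared genes in each of the 3 WT libraries (circles) and 3 ISM1-/- libraries (squares), ordered by mean level within each family. Timp3 and Timp2 lie farthest to the right, at means of 428.9 and 323.1 FPKM, and most genes have mixed circles and squares.

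None of the 4 TIMP genes passed the test in edgeR or DESeq2, and 2 (Timp1 and Timp4, both lower) had an unadjusted p under 0.05 in edgeR. Timp3 was at 866, 929 and 971 CPM in WT and at 942, 976 and 1184 CPM in ISM1-/-. The genotypes overlapped, and ISM1-/- replicate 3 stood above the other libraries. Its log2 fold change was 0.17 (95% interval −0.04 to 0.37, adjusted p = 0.420 by edgeR's quasi-likelihood test, Benjamini-Hochberg method). Timp2 was at 701, 740.3 and 695 CPM in WT and at 735, 731 and 689 CPM in ISM1-/-. Its values were mixed, and the log2 fold change of 0.01 had a 95% interval from −0.12 to 0.14, the narrowest among the TIMP genes.

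The scarce inhibitors Timp1 and Timp4 had the lower mean in ISM1-/-, short of the adjusted threshold. Timp1 was at 4.45, 5.03 and 6.41 CPM in WT and at 3.92, 4.48 and 3.64 CPM in ISM1-/-. The lowest WT library lay just under the highest ISM1-/- library. The log2 fold change was −0.40 (95% interval −0.77 to −0.04, adjusted p = 0.262 by edgeR's quasi-likelihood test, Benjamini-Hochberg method). Timp4, best known from heart and adipose tissue, was at 2.99, 2.21 and 2.17 CPM in WT and at 1.50, 1.29 and 2.10 CPM in ISM1-/-. These values did not overlap, although ISM1-/- replicate 3 came close to WT replicates 2 and 3. This was a log2 fold change of −0.59 (95% interval −1.11 to −0.07), with an adjusted p = 0.241 by the same edgeR test. Leaving out ISM1-/- replicate 3 gave −0.81 and an adjusted p = 0.0918 in edgeR's fit, and leaving out WT replicate 1 gave −0.42 and an adjusted p = 0.491.

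Marker genes of fat and heart muscle, tissues in which Timp4 is known, are given beside it. The 8 adipocyte markers (Adipoq, Plin1 and others) had a mean log2(CPM + 0.5) of 4.38, 4.13 and 4.28 in WT and 2.73, 2.91 and 3.59 in ISM1-/-, without overlap. Of the 8, 6 were lower in ISM1-/- at an adjusted p under 0.1 in edgeR's test, where 3.34% of all genes were. The summed level of the 8 markers ran from 248 to 291 CPM in WT and from 104 to 175 CPM in ISM1-/-. The 8 cardiomyocyte markers were at 7.26, 5.56 and 5.89 in WT and at 4.59, 5.12 and 5.69 in ISM1-/-, with WT replicate 1 far above the others and the remaining libraries overlapping. Their sums ran from 532 to 1623 CPM in WT and from 291 to 566 CPM in ISM1-/-. All 8 markers were lower at an unadjusted p under 0.05 in edgeR's test, where 9.3% of all genes were. Their median log2 fold change was −1.01. At the adjusted threshold, 1 of the 8 (Myl7, an atrial myosin light chain) was lower in edgeR and 0 in DESeq2. In neither list was a marker at 0 in all libraries. The part of these cells in the Timp4 values was not tested. In bulk lung RNA, fewer cells of a type and less RNA per cell cannot be told apart.

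Timp1, Timp3 and Timp4 each lie inside a synapsin gene on the opposite strand. Timp1 (chrX:20870166-20874735) lies within Syn1, Timp3 (chr10:86300372-86349506) within Syn3 and Timp4 (chr6:115241892-115252205) within Syn2. Syn1 averaged 48.7 counts, Syn3 598 and Syn2 495.5, beside 184 counts for Timp1, 38709 for Timp3 and 80.7 for Timp4. Whether strand was used in counting is not given in the sources used here, so reads of Timp1 and Timp4 may not be told apart from those of the host gene. Syn1 had a log2 fold change of −0.30 (adjusted p = 0.719), Syn2 one of −0.06 (adjusted p = 0.818) and Syn3 one of 0.57 (adjusted p = 0.103) by edgeR's quasi-likelihood test, Benjamini-Hochberg method.

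Among the proteases of the MMP family, 15 of 20 genes were compared and none passed edgeR's test, with 10 of the 15 log2 fold changes above 0 and a median of 0.06. At an unadjusted p under 0.05 edgeR's test gave 2 (Mmp25 and Mmp28, both higher), and DESeq2 called 1, Mmp25. The MMP level was carried by Mmp15 (95.2 FPKM, 26.3% of the family), Mmp2 (81.8 FPKM, 22.6%), Mmp14 (73.2 FPKM, 20.2%) and Mmp11 (52.0 FPKM, 14.4%). The ranges of Mmp15, Mmp2 and Mmp14 over the 6 libraries overlapped from one to the next, while Mmp11, with at most 56.99 FPKM, lay below all of them.

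The membrane-type MMPs act at the cell surface. Mmp14, the membrane-type enzyme that activates pro-MMP2, was at 112, 106 and 103 CPM in WT and at 98.8, 107 and 95.8 CPM in ISM1-/-. Mmp15, the most abundant of them, was at 263, 269 and 273 CPM in WT and at 263, 281 and 238 CPM in ISM1-/-. Both overlapped between genotypes, with log2 fold changes of −0.09 (95% interval −0.23 to 0.05) for Mmp14 and −0.04 (−0.19 to 0.11) for Mmp15. Mmp16, Mmp17 and Mmp24 were near 1 FPKM or below, at 0.652, 1.01 and 0.541 FPKM. Their log2 fold changes of 0.22, 0.04 and 0.34 had 95% intervals that included 0, and Mmp24 overlaps BC029722 (a mean of 1514 counts against 53 for Mmp24) on the other strand.

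Mmp25, the membrane-type MMP known from neutrophils as leukolysin, had the largest log2 fold change of the 58 genes in edgeR's fit, short of the adjusted threshold. It was at 2.20, 1.93 and 1.47 CPM in WT and at 4.23, 2.76 and 2.43 CPM in ISM1-/-. All ISM1-/- libraries lay above all WT libraries, and ISM1-/- replicate 1 was the highest. The log2 fold change was 0.75 (95% interval 0.21 to 1.30, adjusted p = 0.158 by edgeR's quasi-likelihood test, Benjamini-Hochberg method). DESeq2 gave an adjusted p = 0.0740, and leaving out each library in turn gave log2 fold changes from 0.48 (without ISM1-/- replicate 1) to 0.91 (without ISM1-/- replicate 3), the latter with an adjusted p = 0.0818 in edgeR's fit. In limma on log2(FPKM + 1), a scale that understates changes of low genes, the log2 difference was 0.27.

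Neutrophil markers were also higher in ISM1-/-, with replicate 1 highest and replicate 3 lowest as in Mmp25, while within WT their order was the opposite of that of Mmp25. Of the 8 markers, 7 were compared and all 7 had a positive log2 fold change. At an adjusted p under 0.1 in edgeR's test, 4 (S100a8, S100a9, Cxcr2 and Csf3r) were higher, where 1.38% of all genes were. Over the list, the mean log2(CPM + 0.5) was 2.62, 2.68 and 2.94 in WT and 3.90, 3.65 and 3.15 in ISM1-/-, and the summed level ran from 53.7 to 70.0 CPM in WT and from 82.7 to 143 CPM in ISM1-/-. Ly6g did not reach the filter, and no marker was at 0 in all libraries. The part of neutrophils in the Mmp25 values was not tested.

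The soluble MMPs showed 1 gene without overlap. Mmp28, epilysin, was at 45.0, 44.9 and 44.4 CPM in WT and at 46.9, 54.9 and 52.3 CPM in ISM1-/-. The WT libraries were nearly identical and all ISM1-/- libraries lay above them. Its log2 fold change was 0.20 (95% interval 0.04 to 0.36), with an adjusted p = 0.197 by edgeR's quasi-likelihood test, Benjamini-Hochberg method. Mmp2, gelatinase A, was at 118, 117 and 127 CPM in WT and at 108, 127 and 110.5 CPM in ISM1-/-, with overlap and a log2 fold change of −0.07 (95% interval −0.23 to 0.10). Mmp11, stromelysin-3, was at 61.1, 56.3 and 55.3 CPM in WT and at 60.5, 58.5 and 43.8 CPM in ISM1-/-, where replicate 3 alone lay below WT. Mmp11 overlaps Chchd10 (a mean of 3565 counts against 2215 for Mmp11) on the other strand.

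Mmp12, whose loss protects mice from smoke-induced emphysema, did not pass the test. It was at 5.64, 3.39 and 3.64 CPM in WT and at 6.53, 6.64 and 3.82 CPM in ISM1-/-. WT replicate 1 lay within the ISM1-/- values, and ISM1-/- replicate 3 was at the level of WT replicates 2 and 3. The log2 fold change was 0.42 (95% interval −0.13 to 0.98, adjusted p = 0.456 by edgeR's quasi-likelihood test, Benjamini-Hochberg method), and it lay between 0.29 and 0.69 when libraries were left out in turn. The 8 alveolar macrophage markers were at a mean log2(CPM + 0.5) of 4.93, 4.98 and 4.83 in WT and 4.70, 4.92 and 4.73 in ISM1-/-, and 0 of 8 were higher or lower at an adjusted p under 0.1 in edgeR or DESeq2, with 1 of 8 (lower) at an unadjusted p under 0.05 in edgeR. Their summed level ran from 513 to 586 CPM in WT and from 454 to 542 CPM in ISM1-/-. Of these 8 markers, 7 had a log2 fold change below 0 and 1 above 0, with a median of −0.15. The part of these macrophages in the Mmp12 values was not tested.

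**Figure D3:**
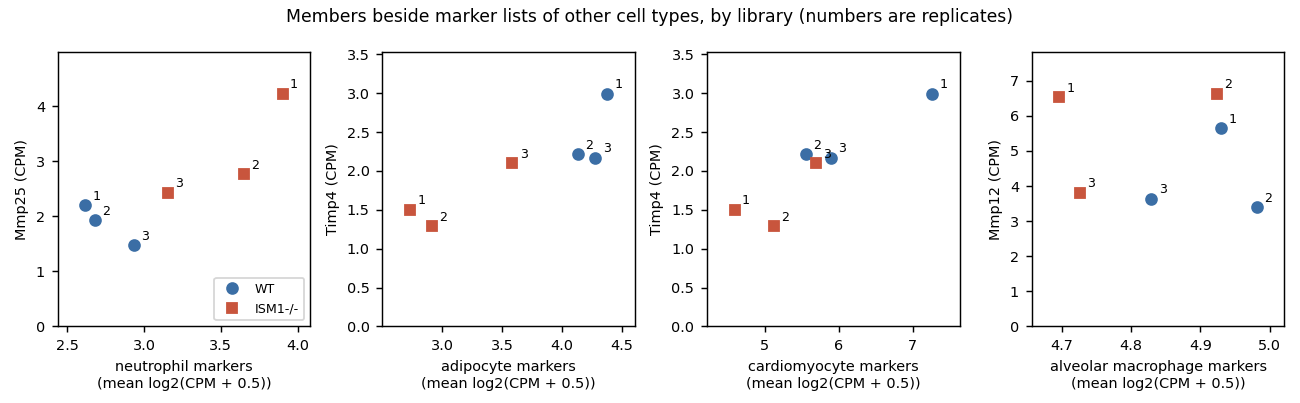
CPM of Mmp25, Timp4 and Mmp12 (vertical axes) against the mean log2(CPM + 0.5) of marker lists for neutrophils, adipocytes, cardiomyocytes and alveolar macrophages (horizontal axes), with 1 point per library labelled by its replicate number. ISM1-/- replicate 1 is highest for both Mmp25 and the neutrophil list (4.23 CPM, 3.90), WT replicate 1 is highest for Timp4 and the cardiomyocyte list (2.99 CPM, 7.26), and the Mmp12 panel shows mixed genotypes.

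The remaining compared MMP genes had mixed values and intervals that included 0. Mmp3 was at 17.9, 18.6 and 17.8 CPM in WT and at 14.3, 16.2 and 24.3 CPM in ISM1-/-, so that the ISM1-/- libraries spread on both sides of WT around a log2 fold change of 0.01. Leaving out ISM1-/- replicate 3 moved it to −0.25. Mmp19 and Mmp23 had log2 fold changes of 0.06 and −0.13 at 10.3 and 10.2 FPKM, and Mmp19 overlaps Tmem198b on the other strand. Mmp13, collagenase-3, and Mmp27 were at 0.306 and 0.293 FPKM, with log2 fold changes of 0.09 (95% interval −0.47 to 0.66) and 0.24 (−0.54 to 1.01). Mmp21, the last of the uncompared MMP genes, had at most 1 count in a library.

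The summed MMP level lay below the summed TIMP level in every library. This sum leaves out Mmp8 and Mmp9, which are among the neutrophil markers above. In FPKM, the sum over the 20 MMP genes divided by that over the 4 TIMP genes was 0.527, 0.485 and 0.491 in WT and 0.469, 0.5001 and 0.402 in ISM1-/-. ISM1-/- replicate 2 lay within the WT values, replicate 1 just below them and replicate 3 lowest of all. The mean ratio was 0.501 ± 0.0227 (SD, n = 3) in WT and 0.457 ± 0.0504 (SD, n = 3) in ISM1-/-, or 91.2% of WT. This difference was smaller than the SD within ISM1-/- and larger than the SD within WT. The MMP sum was 368 ± 4.33 FPKM in WT and 356 ± 26.1 FPKM in ISM1-/-, with overlap, and the TIMP sum was 735 ± 25.8 and 781 ± 37.2 FPKM (SD, n = 3), with every ISM1-/- library above WT, replicates 1 and 2 narrowly and replicate 3 by more than the SD of either group. Leaving out single libraries put the ISM1-/- ratio between 86.9% and 96.8% of that in WT, and no test was run on a sum over chosen genes.

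**Figure D4:**
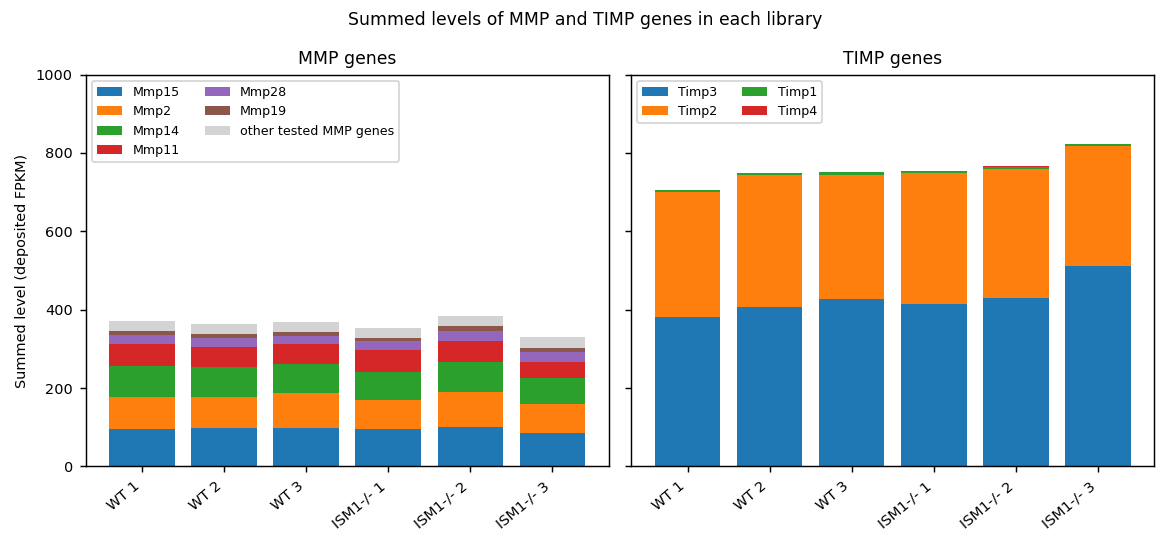
Stacked FPKM of the MMP genes (left, the 6 most abundant by name, Mmp8 and Mmp9 left out) and the TIMP genes (right) in each of the 6 libraries. Both panels share a vertical axis from 0. TIMP bars, mostly Timp3 and Timp2, reach 705 to 823 FPKM and MMP bars 331 to 383 FPKM, with overlap between genotypes in the MMP bars.

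Of the ADAM family, 17 of 33 genes were compared and none passed the test in edgeR or DESeq2, with a median log2 fold change of 0.05. An unadjusted p under 0.05 in edgeR was found for 2, Adam12 (higher) and Adam28 (lower, log2 fold change −0.23). The summed ADAM level was 355, 359 and 357 FPKM in WT and 371, 371 and 370 FPKM in ISM1-/-, without overlap. The ADAMTS and ADAMTSL sums overlapped between genotypes, and none of these sums was tested. The catalytically active ADAMs of somatic tissues made up most of the ADAM level. Adam15 had a mean of 85.2 FPKM, Adam9 67.8 FPKM, Adam10 66.6 FPKM, Adam19 49.0 FPKM and Adam17 35.1 FPKM. The ranges of Adam9 (58.0 to 74.4 FPKM) and Adam10 (62.9 to 71.7 FPKM) overlapped, and the lowest Adam15 library (79.9 FPKM) lay above both.

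The main sheddases were resolved to within a small interval. Adam10, which cleaves Notch and E-cadherin, was at 139, 138 and 147 CPM in WT and at 145, 148 and 159 CPM in ISM1-/-. Adam17, the TNF-converting enzyme, was at 89.9, 88.5 and 91.8 CPM in WT and at 97.4, 93.4 and 91.1 CPM in ISM1-/-. In each gene 1 ISM1-/- library lay within WT and the other two above it. Its log2 fold change was 0.10 for Adam10 (95% interval −0.03 to 0.23) and 0.06 for Adam17 (−0.06 to 0.19), so differences of 1.5-fold lay outside both intervals. Adam15 was at 136, 140.2 and 137 CPM in WT and at 152, 151 and 135 CPM in ISM1-/-, with a log2 fold change of 0.09 (−0.05 to 0.22). Adam9 was at 153, 184 and 176 CPM in WT and at 173, 189.6 and 199.6 CPM in ISM1-/-, with 0.13 (−0.05 to 0.31).

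Adam12, a fibroblast and muscle ADAM linked to fibrosis, was the ADAM gene with the smallest p. It was at 5.14, 4.84 and 4.37 CPM in WT and at 6.04, 6.93 and 5.53 CPM in ISM1-/-, without overlap. The log2 fold change was 0.37 (95% interval 0.07 to 0.66), with an adjusted p = 0.202 by edgeR's quasi-likelihood test, Benjamini-Hochberg method. The 3 ADAMs without protease activity, Adam11, Adam22 and Adam23, had log2 fold changes of 0.09, −0.13 and 0.05. All 3 had overlapping genotypes.

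Most ADAM genes of the reproductive tract did not reach the filter on low counts. They number 21, of which 5 were compared and 8 had 0 counts in all 6 libraries. On chromosome 8, which carries 13 ADAM genes, 4 were compared and 7 were at 0. Adam3, a sperm protein gene, was the most abundant of the 21 at 4.25 FPKM, with 5.09, 4.12 and 4.004 CPM in WT and 5.45, 4.87 and 5.92 CPM in ISM1-/-. WT replicate 1 overlapped the ISM1-/- values, and the log2 fold change was 0.30 (95% interval −0.02 to 0.62). The 4 others compared, Adam1a, Adam4, Adam5 and Adam32, had log2 fold changes from −0.62 to 0.01, each with an interval that included 0. Adam4 lies within Cox16 on the same strand and Adam1a overlaps Tmem116 and Mapkapk5, so these counts are uncertain. Adam19, Adam28, the 3 inactive ADAMs and these 5 reproductive-tract genes were chosen after their values were seen, as were Adamts3, Adamts20, Adamtsl1 and Adamtsl3 below.

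The ADAMTS family held both genes that passed. Adamts9 encodes a proteoglycanase that cleaves versican and aggrecan and has roles in vascular development and ciliogenesis. It lies on chromosome 6 (chr6:92772699-92943492, reverse strand), downstream of the promoter printed above. WT libraries held 2033, 2148 and 2392 of its reads and ISM1-/- libraries 3012, 3482 and 2692, which is 53.9, 51.7 and 61.8 CPM against 70.8, 91.7 and 68.9 CPM. Every ISM1-/- library lay above every WT library, and ISM1-/- replicate 2 was the highest. The mean was 55.8 ± 5.31 CPM in WT against 77.1 ± 12.6 CPM in ISM1-/- (SD, n = 3 each), 38.2% higher. This was a log2 fold change of 0.47 (standard error 0.112, 95% interval 0.22 to 0.72), with an adjusted p = 0.0652 by edgeR's quasi-likelihood test, Benjamini-Hochberg method. DESeq2 gave an adjusted p = 0.0019. In edgeR fits that left out 1 library the log2 fold change lay between 0.33 and 0.55, and the adjusted p was under 0.1 without WT replicate 3 (0.0949) or ISM1-/- replicate 3 (0.0363) and between 0.120 and 0.221 without any of the other 4.

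An antisense gene, 9530026P05Rik, overlaps Adamts9 with a mean of 709 counts against 2626.5 for Adamts9. Its log2 fold change was −0.10 (adjusted p = 0.783 by edgeR's quasi-likelihood test, Benjamini-Hochberg method), so it did not rise with Adamts9 in this test. Gm15737 and A730049H05Rik also overlap Adamts9 on the opposite strand, at means of 23.2 and 49.2 counts. Their log2 fold changes were 0.95 (adjusted p = 0.152) and 0.38 (adjusted p = 0.628) by the same edgeR test. Since the use of strand in counting is not given, the share of reads from these overlapping genes in the Adamts9 counts is not known.

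Adamts6, a protease of the fibrillin-associated ADAMTS10 subgroup, lies on chromosome 13 (chr13:104287835-104496695, forward strand). WT libraries held 305, 298 and 282 of its reads and ISM1-/- libraries 431, 368 and 566, which is 8.08, 7.17 and 7.29 CPM against 10.1, 9.69 and 14.5 CPM. The genotypes did not overlap, and ISM1-/- replicate 3 was well above the other libraries. The mean was 7.51 ± 0.495 CPM in WT against 11.4 ± 2.66 CPM in ISM1-/- (SD, n = 3 each), 52.2% higher. The log2 fold change was 0.61 (standard error 0.154, 95% interval 0.26 to 0.95), with an adjusted p = 0.0779 by edgeR's quasi-likelihood test, Benjamini-Hochberg method. DESeq2 gave an adjusted p = 0.00681. Without ISM1-/- replicate 3 the log2 fold change was 0.40 at an adjusted p = 0.0694 in edgeR's fit, and without any of the other 5 libraries it was 0.57 to 0.71 with adjusted p from 0.110 to 0.237. Neither Adamts9 nor Adamts6 passed in limma on the deposited FPKM values, in glmTreat against a 1.2-fold change or at an adjusted p under 0.05 in edgeR.

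**Figure D5:**
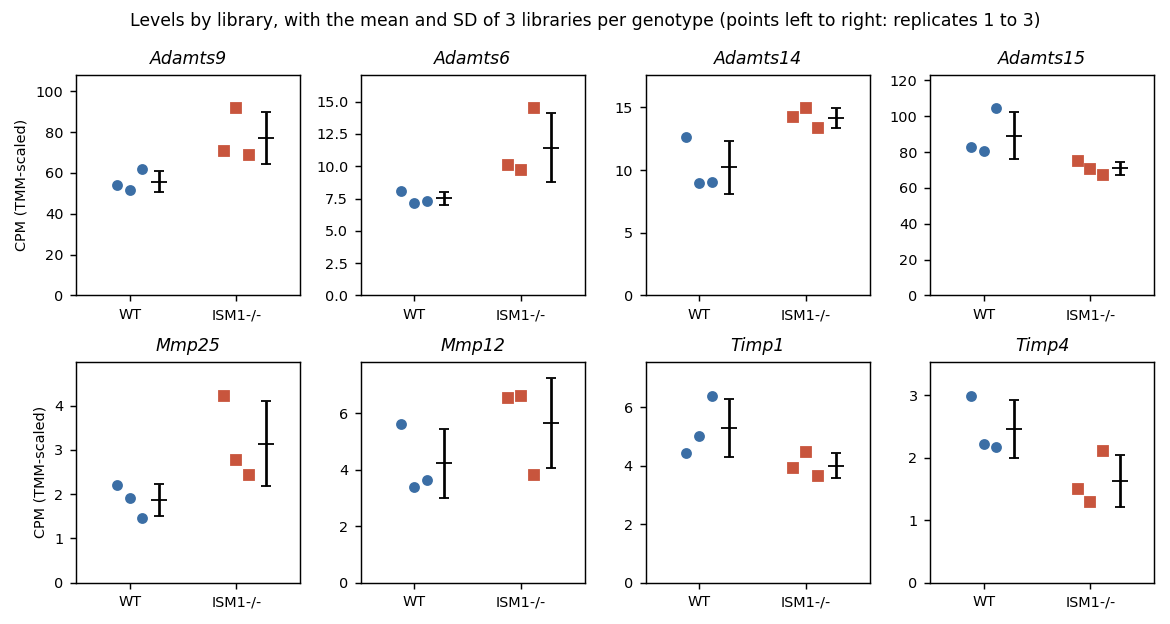
CPM of 8 genes in each library (vertical axes from 0), with WT as circles, ISM1-/- as squares and the mean ± SD of 3 libraries beside them. Adamts9, Adamts6, Adamts14 and Mmp25 are higher and Adamts15 and Timp4 lower in ISM1-/- without overlap, while Mmp12 and Timp1 overlap, and of the 8 the first 2 have an adjusted p under 0.1 in edgeR.

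Procollagen N-proteinases did not move as a group. Adamts2, which processes the collagens I to III and is the most abundant of the 3 at 29.2 FPKM, was at 76.4, 74.0 and 77.0 CPM in WT and at 63.0, 71.6 and 65.8 CPM in ISM1-/-. All ISM1-/- libraries lay below WT, and the log2 fold change was −0.18 (95% interval −0.33 to −0.04, adjusted p = 0.190 by edgeR's quasi-likelihood test, Benjamini-Hochberg method). Adamts14 was at 12.7, 8.98 and 9.04 CPM in WT and at 14.3, 14.9 and 13.3 CPM in ISM1-/-. Here all ISM1-/- libraries lay above WT, with a log2 fold change of 0.47 (95% interval 0.17 to 0.77) and an adjusted p = 0.112 in edgeR and 0.0247 in DESeq2. Without WT replicate 1, the highest of its group, the adjusted p in edgeR was 0.0271 and the log2 fold change 0.65. Adamts3 was at 2.50 ± 0.610 CPM in WT and 3.15 ± 0.700 CPM in ISM1-/- (SD, n = 3), within the spread between libraries.

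Of the 7 proteoglycanases, 1 (Adamts9) was higher and 4 (Adamts15, Adamts5, Adamts4 and Adamts20) were lower in ISM1-/- without overlap, where 9.33% and 12.3% of all genes were, and none of the 4 passed edgeR's test. Adamts15 was at 82.7, 80.5 and 104 CPM in WT and at 74.8, 70.8 and 67.3 CPM in ISM1-/-. The groups did not overlap, and the log2 fold change was −0.33 (95% interval −0.55 to −0.11) with an adjusted p = 0.122 in edgeR's test and 0.0314 in DESeq2. Adamts4, aggrecanase-1, was at 2.07, 1.93 and 2.12 CPM in WT and at 1.36, 1.61 and 1.13 CPM in ISM1-/-, and Adamts5, aggrecanase-2, at 30.1, 25.8 and 24.3 CPM against 22.5, 21.4 and 24.2 CPM. Both were lower in every ISM1-/- library, by a narrow margin in Adamts5. The log2 fold changes were −0.58 (adjusted p = 0.183) and −0.24 (adjusted p = 0.233) by edgeR's quasi-likelihood test, Benjamini-Hochberg method. Adamts1, the most abundant proteoglycanase at 51.1 FPKM, was at 126, 131 and 144 CPM in WT and at 134, 126 and 153 CPM in ISM1-/-, with a log2 fold change of 0.04 (95% interval −0.14 to 0.23).

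Adamts10, which binds fibrillin microfibrils, was the most abundant ADAMTS gene with 102 FPKM or 41.4% of the family. It was at 330.2, 315 and 293 CPM in WT and at 326, 330.5 and 297 CPM in ISM1-/-, with mixed values. Its log2 fold change of 0.02 had a 95% interval from −0.13 to 0.17. Over the 17 compared ADAMTS genes, 8 log2 fold changes were above and 9 below 0, with a median of −0.0042.

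The 5 ADAMTS-like genes were all compared, and 0 passed in edgeR or DESeq2 and 0 had an unadjusted p under 0.05 in edgeR, with a median log2 fold change of −0.06. Adamtsl4, which is tied to fibrillin assembly and lens zonules, was at 67.2, 90.3 and 84.7 CPM in WT and at 77.9, 81.0 and 82.8 CPM in ISM1-/-. Adamtsl2, which binds fibrillin-1 and latent TGFβ-binding protein, was at 54.7, 81.7 and 115 CPM in WT and at 85.9, 69.3 and 86.8 CPM in ISM1-/-. In both genes WT spread more widely than ISM1-/-, and for Adamtsl2 the WT coefficient of variation was 36.1%. Their log2 fold changes were −0.0031 (95% interval −0.22 to 0.22) and −0.06 (−0.53 to 0.42). Adamtsl5 was at 56.6, 56.0 and 50.8 CPM in WT and at 49.3, 52.7 and 44.9 CPM in ISM1-/-, with a log2 fold change of −0.15 (−0.32 to 0.02). Adamtsl3 (0.11) was higher and Adamtsl1 (−0.13) lower without overlap, each with a 95% interval that included 0.

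The 23 genes that did not reach the filter included 16 of the ADAM, 5 of the MMP and 2 of the ADAMTS family (Adamts16 and Adamts18), and 10 of the 23 had 0 counts in all 6 libraries. The highest count of any of them was 15, for Adam6b in ISM1-/- replicate 2. No comparison was made for these genes.

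The partners of these proteases were examined with lists chosen with earlier results of these data known. Of 20 compared activators and inhibitors outside the TIMP family (Reck, Furin, Plau and others), 0 were called in either direction, with a median log2 fold change of 0.0053. Of 8 compared partners of ADAM10 and ADAM17, such as the iRhoms Rhbdf1 and Rhbdf2 and the TspanC8 tetraspanins, 0 were called, with a median of −0.0061. Of 4 compared secreted astacin and meprin genes, which include Bmp1, 0 were called, with a median of −0.04. At an unadjusted p under 0.05 in edgeR's test the first list held 3 genes (Pcsk5, Pcsk6 and Lrp1) and the others 0, against 15.8% of all genes. DESeq2 called 0 in each.

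Of 17 compared matrix substrates, 2 were lower and 0 higher in edgeR's test, where 3.34% and 1.38% of all genes were, with a median log2 fold change of 0.0051. At an unadjusted p under 0.05 edgeR's test gave 6 lower and 3 higher, where 9.3% and 6.48% of all genes were. DESeq2 called 3 lower and 2 higher, and its share over all genes is not given here. Dcn, decorin, had 6492, 6153 and 6215 counts in WT and 4342, 3706 and 5086 in ISM1-/-, and Col1a1 had 14502, 16662 and 15334 against 13378, 13046 and 10925. The log2 fold changes were −0.54 (adjusted p = 0.0328) and −0.33 (adjusted p = 0.0517) by edgeR's quasi-likelihood test, Benjamini-Hochberg method.

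Other cell types whose RNA could carry these genes differed in part. Over all genes, 3.34% were called lower and 1.38% higher in edgeR's test. Of 8 fibroblast markers, which include Dcn and Col1a1, 5 were lower in ISM1-/- and 0 higher. Summed levels of the 8 were 1600 to 1665 CPM in WT and 1402 to 1459 CPM in ISM1-/-. Lower genes also numbered 1 of 5 for smooth muscle, 2 of 4 for ciliated airway cells and 1 of 2 compared for skeletal muscle in edgeR's test. DESeq2 called 3, 4 and 1 of them lower. An unadjusted p under 0.05 in edgeR was found for 4, 4 and 2, all lower, where 9.3% of all genes were. Higher genes numbered 2 of 5 for plasma cells (Jchain and Igha) and 1 of 5 for alveolar type 1 cells (Rtkn2). In endothelium, alveolar type 2 cells, interstitial macrophages and mesothelium 0 of 5, 0 of 5, 0 of 5 and 0 of 4 were called in either direction, and in chondrocytes 0 of 2, with Acan, Cnmd, Matn1 and Col9a1 under the filter. At an unadjusted p under 0.05 in edgeR's test these lists held 3, 1, 0, 1 and 2 genes, against 15.8% of all genes. DESeq2 called 1 mesothelium gene and 0 in the others. Summed levels did not overlap between genotypes for the first 2 of these lists, at 3534 to 3703 CPM in WT and 3842 to 4039 CPM in ISM1-/- for endothelium (5 of 5 log2 fold changes above 0) and at 20749 to 21150 CPM and 19512 to 20594 CPM for alveolar type 2 cells (5 of 5 below 0). The part of these cell types in the values of the metalloproteinase genes was not tested.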

How the data were processed

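RNA of 6 mouse lungs (3 WT, 3 ISM1-/-) was sequenced from strand-specific libraries. The authors deposited read counts per gene and FPKM values, which scale them by depth and gene length. The submitters' processing notes name CASAVA, STAR and GRCm38/mm10. The counting program, strand setting, annotation release and definition of gene length are not given in the sources used here. Totals were 37606133 to 42345042 counts. Replicates came from different animals, and all pairs of libraries differed beyond sampling noise.

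Genes at 0.5 CPM or more in at least 1 library (18689 of 54532) were compared with edgeR 4.0.16 (quasi-likelihood test, TMM factors, R 4.3.3), and p-values were adjusted over all of them by the Benjamini-Hochberg method. The threshold was an adjusted p under 0.1, and fold changes are ISM1-/- over WT. FPKM was used for levels between genes and, with limma 3.58.1, as an alternative. Other alternatives were DESeq2 1.42.0, other scalings and filters, glmTreat, a replicate block and leaving out each library. The procedure was tested on simulated data with known changes. The families and the pathway and marker lists were chosen with earlier results of these data known. Named genes were every TIMP gene, every compared MMP gene, in each other family the genes called and the 3 highest in mean FPKM, Adam10 and Adam17, the 5 with the smallest p outside these, and list members with an adjusted p under 0.1. Genes named beyond this rule were chosen after their values were seen. Promoter windows and their sequences are from RefSeq (GRCm38.p6). Some results, among them the list of substrates shed by ADAM10 and ADAM17, are not reported here.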

Additional observations from a re-analysis of the deposited data

How the results depend on the processing

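Counts of called genes depended on the setting. At an adjusted p under 0.1 the main count of 2 metalloproteinase and inhibitor genes became 5 with DESeq2 and 5 without a filter on low counts (Adamts9, Adamts6, Adamts14, Adamts15 and Mmp25 in both), and 0 with glmTreat against a 1.2-fold change, with limma on log2(FPKM + 0.1) or log2(FPKM + 1), and at an adjusted p under 0.05. With a replicate block it was 4. The labels share replicate numbers, and same-numbered libraries come from different mice. The correlations of their deviations were −0.0274, 0.0313 and 0.0371, and those of differently numbered libraries ran from −0.0758 to 0.0618. With 3 libraries per genotype these values cannot show whether same-numbered samples were handled together. Leaving out 1 library gave 0 to 4 genes, with 4 without ISM1-/- replicate 3 (Adamts6, Adamts9, Mmp25 and Timp4), 1 without WT replicate 1 (Adamts14), 1 without WT replicate 3 (Adamts9) and 0 without any of the others. Over all genes the 882 calls became 1632 without a filter, 58 with glmTreat, 455 at an adjusted p under 0.05 and 150 to 1470 when 1 library was left out. The count over all genes with DESeq2 and the number of genes tested without a filter are not given here. The 5 members called in those settings are therefore not set against a share of all genes.

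The median log2 fold change of the MMP genes was 0.0090 above a mean of 2 CPM, 0.023 with limma on log2(FPKM + 1) and 0.029 to 0.14 when 1 library was left out. For TIMP genes it was −0.11 with limma on log2(FPKM + 1) and −0.22 to −0.12 over left-out libraries, for ADAM 0.0075 to 0.061, for ADAMTS −0.07 to 0.02 and for ADAMTSL −0.12 to 0.033. The MMP to TIMP ratio of ISM1-/- was 86.9% to 96.8% of that in WT.

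Directions near 0 turned for Mmp3 (−0.021 with the replicate block, −0.033 with limma on log2(FPKM + 0.1) and −0.028 on log2(FPKM + 1)) and Adamtsl4 (0.0020 with DESeq2, 0.0019 with RLE factors, 0.0048 with protein-coding genes only, 0.0075 with the replicate block and 0.00021 with limma on log2(FPKM + 0.1)). With 1 library left out, the log2 fold change ran from −0.0047 to 0.043 for Timp2, −0.17 to 0.049 for Mmp11, −0.10 to 0.020 for Mmp15, −0.14 to 0.14 for Mmp17, −0.027 to 0.17 for Mmp19, −0.25 to 0.16 for Mmp3, −0.021 to 0.071 for Adamts10, −0.035 to 0.11 for Adamts1, −0.12 to 0.086 for Adamtsl4 and −0.29 to 0.24 for Adamtsl2. The cause was not tested. With 3 libraries per genotype, the 13 genes under 1 FPKM had the widest intervals.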
